A study of Mus musculus with 4 samples.

Results

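The Hox cluster genes of the mouse were examined in cells sorted as cortical astrocytes from mice with and without deletion of Ezh2. This gene encodes the catalytic subunit of Polycomb repressive complex 2 (PRC2). Members were the protein-coding rows of the count table named Hoxa, Hoxb, Hoxc or Hoxd with a number. There were 10 such rows among 29224 genes in all, while the family has 39 members in the GENCODE M21 annotation. The other 29 members had no row, and were taken to have had no reads. Every count of a Hox gene was at or below 3 in every library, so the results that follow describe how low the family was in both groups and how far a change in it was detectable.

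RNA was sequenced from cells sorted as astrocytes from the cerebral cortex of mice at P5. The sort used magnetic beads against GLAST, a surface protein of astrocytes that takes up glutamate. The Ezh2 f/f mice, here the controls, carried floxed Ezh2 alleles without deletion, and gave 2 libraries. The Ezh2 cKO group carried the same floxed alleles and Cre recombinase under the astrocyte gene Aldh1l1, and gave 2 libraries. Deletion therefore needs expression of Aldh1l1 in a cell or in a cell from which it came. Nothing in the sources used here says that the libraries came from separate animals, so p-values measure the spread between these libraries, which may be technical.

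Hox genes encode homeodomain transcription factors that set position along the body axis, and they lie in 4 clusters, HoxA to HoxD, in the order in which they are used from head to tail. In the nervous system they are known as genes of the hindbrain and spinal cord, and the forebrain, from which the cortex comes, does not normally use them. The clusters are classic targets of PRC2, which places methyl groups on lysine 27 of histone H3, and of PRC1, which binds that mark, while trithorax group enzymes act in the opposite direction. The question put to the data was whether transcripts of the family were found when Ezh2 was deleted in astrocytes.

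The promoter sequences of the Hox genes with the most counts, Hoxd8 and Hoxb4, are shown with that of Mtx2, a broadly used gene beside the HoxD cluster that was well counted in all libraries. They are shown because PRC2 is known to be recruited to stretches rich in CG dinucleotides, which are in capitals. The windows are from RefSeq on GRCm38.p6, all on the plus strand, from 250 bases before to 50 bases after a gene's start, at chr2:74704365-74704664 for Hoxd8, chr11:96318017-96318316 for Hoxb4 and chr2:74825562-74825861 for Mtx2.
Hoxd8: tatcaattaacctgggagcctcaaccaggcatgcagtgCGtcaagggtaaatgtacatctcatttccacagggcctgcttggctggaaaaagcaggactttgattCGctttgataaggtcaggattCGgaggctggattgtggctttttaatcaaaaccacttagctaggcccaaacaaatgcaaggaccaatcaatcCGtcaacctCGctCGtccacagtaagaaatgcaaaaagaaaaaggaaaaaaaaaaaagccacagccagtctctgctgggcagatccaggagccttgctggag
Hoxb4: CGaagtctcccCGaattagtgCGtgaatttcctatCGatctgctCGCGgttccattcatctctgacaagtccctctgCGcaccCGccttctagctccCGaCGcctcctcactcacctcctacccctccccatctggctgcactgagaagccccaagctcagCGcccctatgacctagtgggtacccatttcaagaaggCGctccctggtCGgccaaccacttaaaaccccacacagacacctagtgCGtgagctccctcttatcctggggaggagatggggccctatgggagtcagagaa
Mtx2: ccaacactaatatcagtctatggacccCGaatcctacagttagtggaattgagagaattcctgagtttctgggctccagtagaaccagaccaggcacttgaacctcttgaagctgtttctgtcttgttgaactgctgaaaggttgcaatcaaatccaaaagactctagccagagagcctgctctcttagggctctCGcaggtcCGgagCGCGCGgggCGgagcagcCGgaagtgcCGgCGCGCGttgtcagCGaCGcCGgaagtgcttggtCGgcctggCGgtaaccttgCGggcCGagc
The dinucleotide CG, which reads the same on both strands, occurred 6 times in the Hoxd8 window, 14 times in the Hoxb4 window and 19 times in the Mtx2 window. Of the family, 22 genes had a promoter in the table, with 24 windows that held a median of 14.5 CG (range 4 to 45). At least 14 CG were found in 54.2% of these windows and in 36.3% of all 32851 promoter windows of the same 300 bases, whose median was 7. The flanking genes that were counted in these cells had a median of 19 CG in 18 windows, and 77.8% of the windows held at least 14.

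The 4 libraries held 16273308 to 17522152 counts. A count of 0 allows up to 3 counts, taken here as the floor of detection, which was 0.170 to 0.191 CPM (counts scaled to library size) in a library. Intervals and floors cover counting error only. Ezh2 itself was counted 434 and 327 times in the controls and 211 and 164 times in Ezh2 cKO, with a log2 fold change of -1.11 (SE 0.16, adjusted p = 3.26e-05, edgeR's quasi-likelihood test). Ezh2 transcript was thus lower but present in the Ezh2 cKO libraries; fewer cells of a type and less RNA per cell cannot be told apart in bulk samples. Of 12 astrocyte markers, 10 were higher and none was lower in Ezh2 cKO, and their summed level was 869 and 883 CPM in the controls and 3533 and 3206 CPM in Ezh2 cKO. Pan-neuronal markers summed to more than the astrocyte markers in every library, at 7031 and 7316 CPM against 7441 and 7456 CPM. The libraries were thus not of astrocytes alone, and the Hox counts and floors are those of mixed libraries. Of the 12 pan-neuronal markers, 9 were higher and 3 lower in Ezh2 cKO, with a median log2 fold change of 0.97, although their sum was nearly level. In the same order, the summed levels were 222 and 229 against 1069 and 927 CPM for the oligodendrocyte lineage (10 of 10 higher), 80.3 and 85.0 against 275 and 239 CPM for microglia (8 of 8 higher), and 412 and 487 against 517 and 516 CPM for blood cells (4 of 7 tested higher). Endothelial markers summed to 289 and 275 against 357 and 311 CPM (2 of 8 higher, 1 lower). Mural and fibroblast markers summed to 410 and 373 against 534 and 493 CPM (5 of 9 higher, 2 lower). All these calls of markers stand beside 34.7% higher and 33.6% lower over all genes tested, which the endothelial calls do not exceed.

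Across the whole family, 15 counts fell on Hox genes in the 4 libraries together, out of 67803999 counts. Hox genes had 6 counts in Ezh2 f/f replicate 1 (exact 95% Poisson interval 2.2 to 13.1) and 5 in replicate 2 (1.62 to 11.7). They had 1 count in Ezh2 cKO replicate 1 (0.0253 to 5.57) and 3 in replicate 2 (0.619 to 8.77). The sums in Ezh2 cKO were both below those in Ezh2 f/f, but the counting intervals of all 4 libraries overlapped. The summed level was 0.335 ± 0.0234 CPM (SD, n = 2) in the controls and 0.115 ± 0.0823 CPM (SD, n = 2) in Ezh2 cKO. Pooled over libraries, the ratio of Ezh2 cKO to Ezh2 f/f was 0.341 with an exact conditional binomial 95% interval of 0.0792 to 1.15, which includes no difference and covers counting error only. A rise of the whole family beyond the upper bound of this interval was not seen. Leaving out Ezh2 cKO replicate 1 gave a ratio of 0.516, and leaving out its replicate 2 gave 0.169, so its size rested on single reads.

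**Figure D1:**
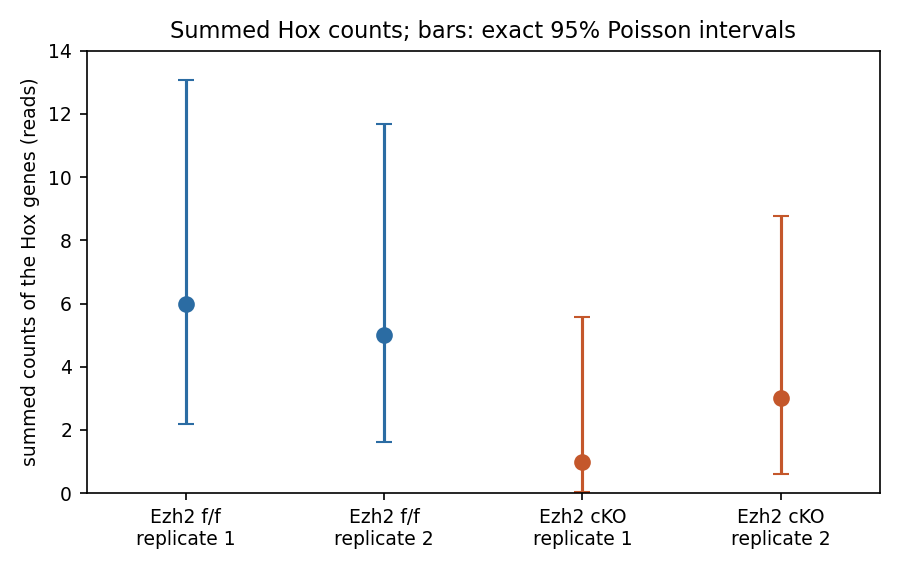
The vertical axis gives the summed counts (reads) of all Hox cluster genes in each of the 4 libraries on the horizontal axis, as points with exact 95% Poisson intervals. The sums were 6 and 5 in the controls and 1 and 3 in Ezh2 cKO, and the intervals overlap.

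Hoxd8, a gene of the middle of the HoxD cluster, had the most counts. It was counted 3 times in Ezh2 f/f replicate 1 and 1 time in replicate 2, and 0 times in Ezh2 cKO replicate 1 and 1 time in replicate 2. It was the only member with a count in both groups and the only one with a count in more than 1 library. Its deposited row places it on chromosome 2 from 74534959 to 74538277 on the plus strand. The deposited coordinates differ from those of GRCm38 and the submitters' processing notes name mm9, so the build behind them was not settled here.

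Hoxb4, an anterior gene of the HoxB cluster, was counted 2 times in Ezh2 f/f replicate 2 and 0 times in each of the other libraries. The remaining 8 listed members had 1 count each over all 4 libraries. In Ezh2 f/f these single counts fell on Hoxa7, Hoxc10 and Hoxc13 in replicate 1 and on Hoxc4 and Hoxd9 in replicate 2. In Ezh2 cKO they fell on Hoxa10 in replicate 1 and on Hoxc9 and Hoxd1 in replicate 2. A total of 6 members were counted in Ezh2 f/f alone and 3 in Ezh2 cKO alone, with 7 and 4 members counted in each group. Single reads in different genes do not separate the groups, and no member rose above the floor of 3 counts in any library.

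**Figure D2:**
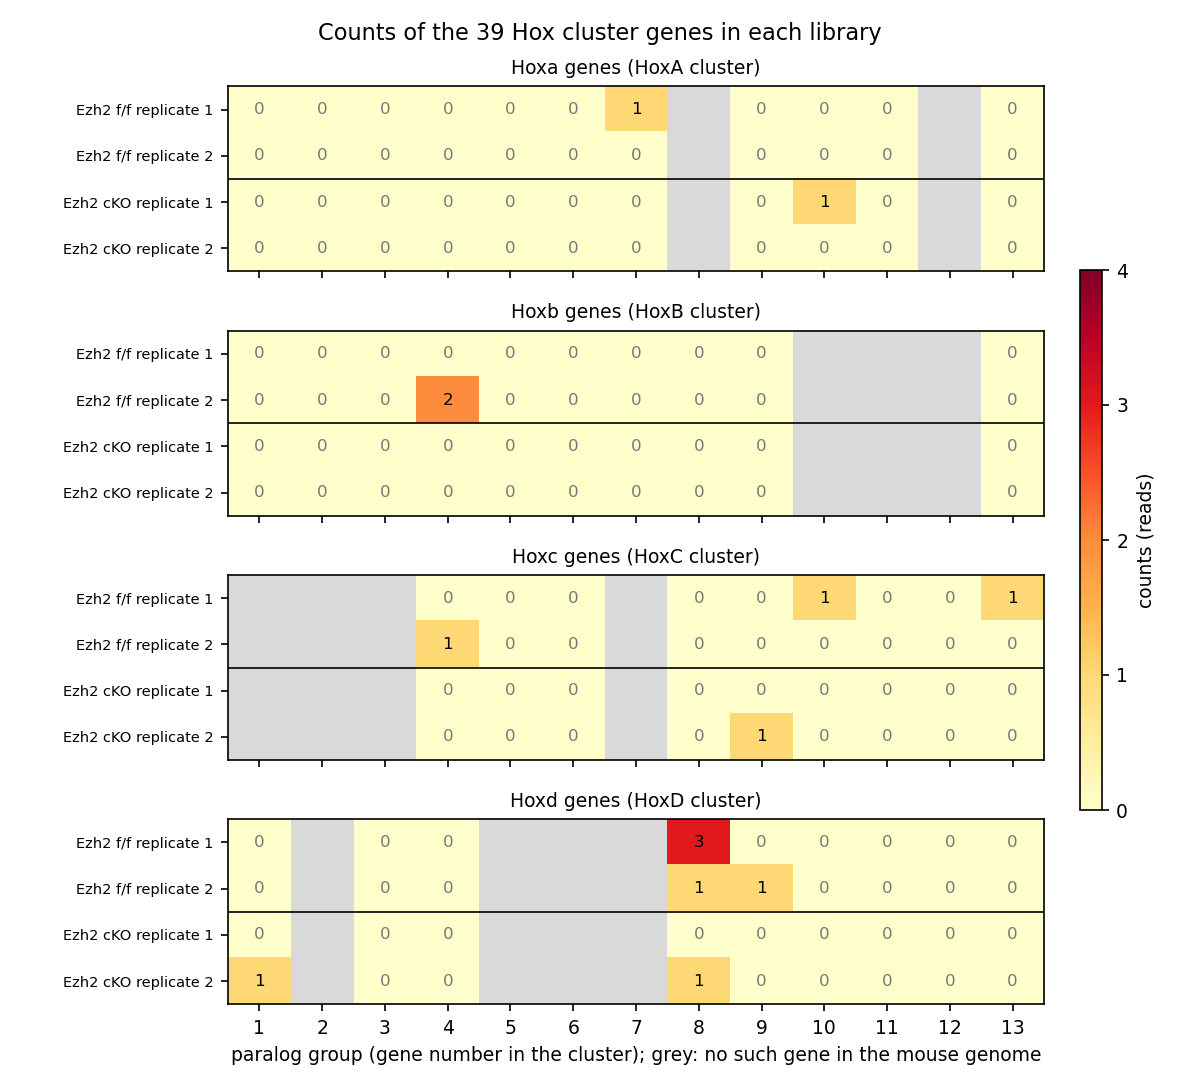
Each panel is a Hox cluster, with the paralog group on the horizontal axis, 1 library per line and the counts (reads) as the number and colour of each cell; members with no row are drawn at 0 and grey marks positions where the mouse has no gene. The highest cell is Hoxd8 with 3 counts in Ezh2 f/f replicate 1, and nearly all other cells are 0.

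The counts were spread over all 4 clusters. In HoxA, on chromosome 6, 2 of 11 members had a row, with 1 count in the controls and 1 in Ezh2 cKO. In HoxB, on chromosome 11, 1 of 10 members had a row, with 2 counts in the controls and 0 in Ezh2 cKO. In HoxC, on chromosome 15, 4 of 9 members had a row, with 3 counts in the controls and 1 in Ezh2 cKO. In HoxD, on chromosome 2, 3 of 9 members had a row, with 5 counts in the controls and 2 in Ezh2 cKO. No cluster held more than 3 counts in a library.

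By position along the body axis, the anterior paralog groups 1 to 4 had a row for 3 of 12 members, with 3 counts in the controls and 1 in Ezh2 cKO. The middle groups 5 to 8 had a row for 2 of 11 members, with 5 counts in Ezh2 f/f, 4 of them from Hoxd8, and 1 in Ezh2 cKO. The posterior groups 9 to 13, used in the caudal spinal cord and the limbs, had a row for 5 of 16 members, with 3 counts in the controls and 2 in Ezh2 cKO. Reads of posterior genes were thus as few as those of anterior genes.

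No Hox gene could be tested. A gene entered the fit when it reached about 10 counts (0.588 CPM) in at least 2 libraries, and 0 of 39 members did, against 14526 of 21951 protein-coding genes of the annotation (66.2%). Of the 16793 genes tested, 34.7% were called higher and 33.6% lower in the cKO libraries (adjusted p under 0.05), with a median log2 fold change of 0.02. Of the Hox genes, 0 were called in either direction by edgeR or by DESeq2. When every listed gene was fitted without a filter, the 10 Hox rows had adjusted p-values between 0.443 (Hoxb4) and 0.560 in edgeR's quasi-likelihood test, and 0 had an unadjusted p under 0.05. This says nothing of whether a Hox gene changed below the floor. In terms of FPKM, which scales counts to gene length and library size, 1 count of a listed member was worth 0.0176 to 0.0322 FPKM, and 3 counts 0.0529 to 0.0966 FPKM. A count of 0 in a library therefore allows a level up to about that of 3 counts.

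The family was detected less than protein-coding genes in general. A row was present for 10 of 39 Hox genes (25.6%) and for 17919 of 21951 protein-coding genes of the annotation (81.6%). Among protein-coding rows, 1738 of 17887 (9.72%) had no library above 3 counts, as had 10 of 10 Hox rows. Other genes with a homeobox domain in the deposited annotation were read far more. There were 119 such rows, of which 83 exceeded 3 counts in a library, and their median count summed over the 4 libraries was 41, with a maximum of 7455, while that of the listed Hox genes was 1, with a maximum of 5. Of these other homeobox genes 59 were tested, 14 of them higher and 33 lower in Ezh2 cKO, beside 34.7% higher and 33.6% lower over all genes tested, with a median log2 fold change of -0.76 beside 0.02.

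Shared sequence limits such counts, because a read in an exon of overlapping genes may be given to another gene or to none. In GENCODE M21, 23 of the 39 members share no exon base with another gene, and 15 of these 23 had no row. In 3 members more than 50% of the exon bases are shared, up to 62.8%. Whether the authors counted with strand is not given in the sources used here, so a read of a Hox gene and a read of its antisense partner cannot be told apart.

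The noncoding genes of the clusters were as low. Halr1, a long noncoding RNA beside HoxA, had 3 and 0 counts in the controls and 1 and 0 in Ezh2 cKO. Hoxb3os had 1 count, in Ezh2 f/f replicate 2, and Hoxd3os1 had 1, in Ezh2 cKO replicate 2. Hotair, Hottip, Hotairm1, Haglr and the Mir10 and Mir196 genes had no row. For the Mir genes this says nothing of mature microRNAs, since the libraries are not said to have kept short RNAs. Evx1, the homeobox gene at the posterior end of HoxA, had 1 count, in Ezh2 cKO replicate 2, and Evx2, its counterpart at HoxD, had no row. None of these genes passed 3 counts in a library.

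Most genes around the clusters were well counted. Within 300 kb of the cluster edges, GENCODE M21 (GRCm38) places 26 protein-coding genes that are not Hox genes, of which 24 had a row, 20 exceeded 3 counts in a library and 18 were tested. Of these 18, 5 were higher and 6 lower in Ezh2 cKO, which is near the 34.7% higher and 33.6% lower over all genes tested and no result about the neighbourhood of the clusters; all flanking genes named here were chosen after their values were seen. Mtx2, a gene of mitochondrial import that lies 60.7 kb from the HoxD edge, was counted 788 and 741 times in the controls and 780 and 797 times in Ezh2 cKO. Its log2 fold change of -0.05 (SE 0.10, adjusted p = 0.669, edgeR) did not pass the test, and its level was 12.3 and 12.6 FPKM on average in the groups. Reads were thus abundant next to HoxD while Hoxd8, the most counted member inside it, had 3 or fewer.

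Skap2, a signalling adaptor 143 kb from the HoxA edge, rose from 45 and 32 counts to 147 and 134. Its log2 fold change was 1.78 (SE 0.23, adjusted p = 1.13e-05, edgeR). Hibadh, a gene of valine breakdown on the other side of HoxA, rose from 424 and 448 counts to 769 and 659 (0.62, SE 0.12). Snx10, a sorting nexin outside the 300 kb, rose from 305 and 293 counts to 1170 and 1384 (log2 fold change 2.00, SE 0.12). Skap1, the relative of Skap2 that lies 96.3 kb from the HoxB edge, had 8 and 17 counts in the controls and 25 and 31 in Ezh2 cKO, with an adjusted p of 0.0452 in edgeR that was 0.200 in DESeq2 and 0.118 to 0.329 in edgeR without any of 3 of the 4 libraries in turn. Of the 24 noncoding and neighbouring genes on the list, 10 had a row and 6 were tested, with 3 higher, 0 lower and a median log2 fold change of 0.74. Over all genes tested, 34.7% were higher and 33.6% lower, with a median of 0.02. The list takes in Snx10 and leaves out neighbours that fell, such as Igf2bp1 and Hnrnpa1, so it is no result about the neighbourhood. Markers of several cell types moved with Skap2: microglia (8 of 8 higher), the oligodendrocyte lineage (10 of 10) and astrocytes (10 of 12, 0 lower). The part of these cells in the result was not tested.

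Lnpk, a gene of the endoplasmic reticulum 88.9 kb from HoxD on the side of the posterior genes, had 140 and 137 counts in the controls and 171 and 254 in Ezh2 cKO. Its log2 fold change was 0.53 (SE 0.20, adjusted p = 0.0310 in edgeR and 0.0870 in DESeq2, and 0.420 in edgeR without Ezh2 cKO replicate 2). Near HoxB, Igf2bp1, a fetal RNA-binding protein gene, fell from 110 and 106 counts to 14 and 6 (log2 fold change -3.51, SE 0.34), and Atp5g1, a subunit gene of ATP synthase, rose by 0.35 on the log2 scale. Near HoxC, Hnrnpa1, a splicing factor gene with near-identical copies in the genome, so that its counts are uncertain, fell from 17793 and 15341 counts to 8029 and 7975 (log2 fold change -1.14, SE 0.08). Atf7, a transcription factor gene, fell by 0.75 on the log2 scale, Cbx5, which encodes heterochromatin protein 1 alpha, by 0.47, Atp5g2 by 0.34 and Calcoco1 by 0.28; the last of these calls was lost without either Ezh2 cKO library or without Ezh2 f/f replicate 1, and that of Atp5g2 without Ezh2 cKO replicate 2. By cluster, 2 of 2 tested flanking genes were called higher and 0 lower near HoxA. Near HoxB 2 of 6 were higher and 1 lower, and near HoxC 0 of 8 were higher and 5 lower. Near HoxD 1 of 2 was higher and 0 lower. With 34.7% higher and 33.6% lower over all genes tested, these small counts are no result about any cluster. The Hox genes stayed at or below 3 counts in every library.

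**Figure D3:**
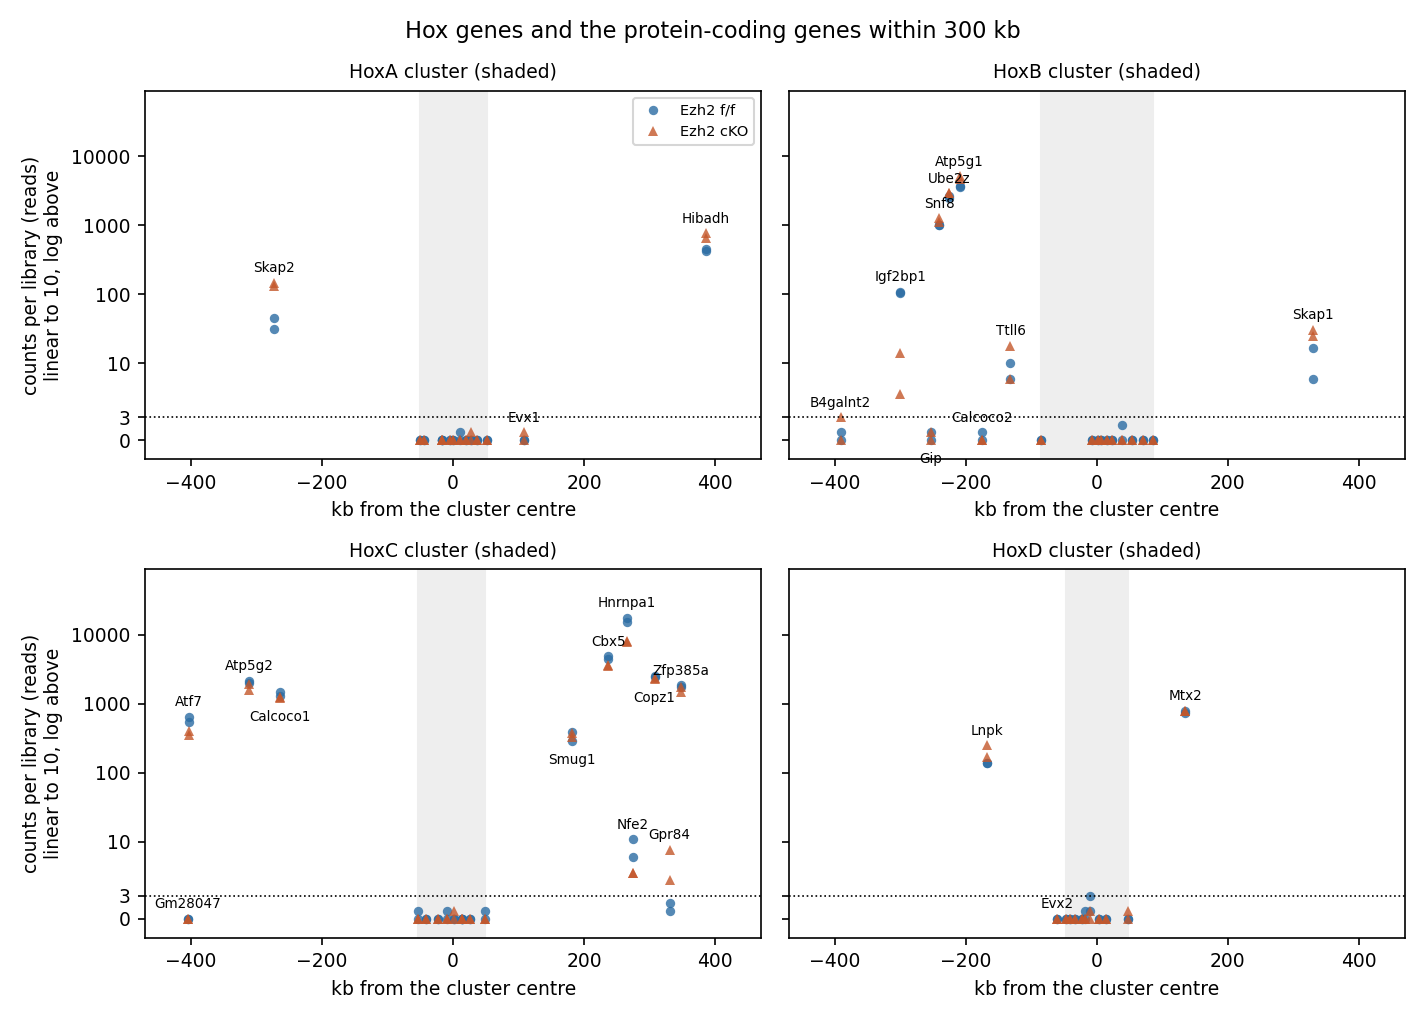
Each panel shows a Hox cluster (shaded) and the other protein-coding genes within 300 kb, with the distance of each gene's middle from the cluster centre in kb on the horizontal axis and the counts (reads) per library on the vertical axis, which is linear up to 10 and logarithmic above. The dotted line marks 3 counts; the Hox genes lie at or below it in all 4 libraries, while flanking genes such as Hnrnpa1 and Mtx2 reach far higher counts.

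The partners through which Hox proteins bind DNA were expressed in these cells. All 9 genes of the TALE homeobox family on the list (Pbx, Meis and Pknox genes, which encode cofactors of Hox proteins and also act without them) were tested, with 1 higher, 7 lower and a median log2 fold change of -0.71. Among all genes tested, 34.7% were higher and 33.6% lower, with a median of 0.02. Meis3 fell from 2812 and 2629 counts to 1053 and 961 (log2 fold change -1.53, SE 0.09, adjusted p = 7.40e-09, edgeR). Pbx3 fell from 641 and 584 counts to 183 and 234 (-1.64, SE 0.14). Pbx4 fell by 1.09 and Meis2 by 0.80 on the log2 scale, and Pknox2 rose from 1040 and 994 counts to 1486 and 1548 (0.48, SE 0.09). Meis1, which alone was called in neither direction and is named for that, had 110 and 89 counts in the controls and 118 and 97 in Ezh2 cKO (log2 fold change 0.02, SE 0.21, adjusted p = 0.934, edgeR). The libraries of the 2 groups did not overlap in CPM for the genes of this list named as called. Those of Mtx2, which was not called, did not overlap either, so this adds nothing to the calls. In FPKM, Meis3 had on average 50.7 in the controls and 18.7 in Ezh2 cKO, against less than 0.1 for any Hox gene in any library.

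Of 22 genes that act upstream of the clusters (Cdx factors, the retinoic acid pathway, Gdf11 and chromatin factors of the cluster boundaries), 20 had a row and 17 were tested, with 5 higher, 8 lower and a median log2 fold change of -0.20. These stand beside 34.7% higher, 33.6% lower and a median of 0.02 over all genes tested. Cdx1 and Cdx2, caudal activators of Hox genes, had no row, and Cdx4 had 0 and 0 counts in the controls and 1 and 3 in Ezh2 cKO. Aldh1a1, an enzyme that makes retinoic acid, rose from 24 and 15 counts to 311 and 337 (log2 fold change 3.96, SE 0.22, adjusted p = 3.35e-09, edgeR). Crabp1, a binding protein of retinoic acid, fell by 1.36 on the log2 scale, the retinoid X receptor genes Rxra and Rxrb fell by 0.87 and 0.67, Ctcf, which encodes the boundary factor of the clusters, fell by 1.08, and Bmi1, a PRC1 gene, fell by 0.94.

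Trithorax group genes, whose products keep Hox genes active, were tested for 13 of 13 members, with 0 higher, 10 lower and a median log2 fold change of -0.45. Kmt2b fell most, from 6357 and 5827 counts to 1730 and 1589 (log2 fold change -1.97, SE 0.09, adjusted p = 4.92e-10, edgeR). Kmt2d fell by 1.47, Kdm6b, which encodes a demethylase of lysine 27 of histone H3, by 1.35, Kmt2a, a classic activator of Hox genes, by 0.93, Wdr5 by 0.69 and Kmt2c by 0.63. Of 22 genes of PRC2 and PRC1, all tested, 1 was higher and 15 were lower, with a median of -0.50. The PRC1 genes Cbx2, Pcgf2 and Phc1 fell by 2.53, 2.13 and 2.03 on the log2 scale, Phc2 fell by 1.08, and Cbx6 rose by 1.63. Ezh2 was the PRC2 gene among the 6 with the smallest p. These lists describe transcripts, and the shares called stand beside the 34.7% higher and 33.6% lower over all genes.

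**Figure D4:**
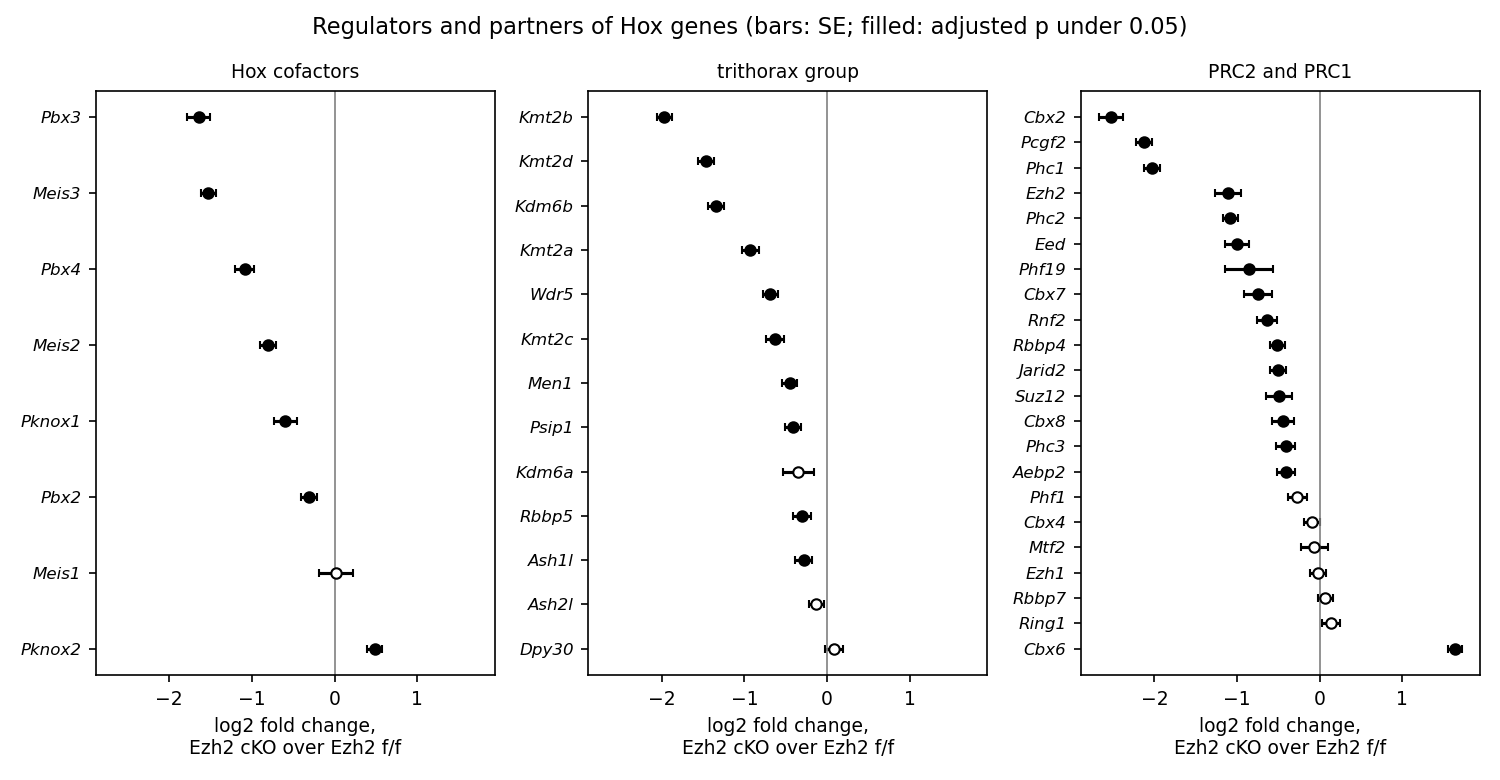
The horizontal axis gives the log2 fold change of Ezh2 cKO over Ezh2 f/f with its SE for genes of 3 lists on the vertical axis; filled points had an adjusted p under 0.05. Most points lie to the left, with Cbx2 at -2.53, Kmt2b at -1.97 and Pbx3 at -1.64, and Cbx6 stands to the right at 1.63.

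Markers of other regions were read beside the Hox counts. Genes of the cortex were present in every library and summed to 985 and 858 CPM in the controls and 550 and 537 CPM in Ezh2 cKO. Of these 10 genes, 0 were higher and 8 lower, beside 34.7% higher and 33.6% lower over all genes tested. Of 15 genes of the hindbrain and spinal cord, 14 had a row, 7 exceeded 3 counts in a library and 3 were tested, with 0 higher and 1 lower. Their summed level was 38.8 and 43.3 CPM in the controls and 22.0 and 21.6 CPM in Ezh2 cKO. Phox2a, Sim1 and Atoh1 had 4 or fewer counts in each Ezh2 f/f library and 0 in Ezh2 cKO. Gbx2, a gene of the hindbrain border that the thalamus also uses, had 9 and 138 counts in the controls and 0 in both Ezh2 cKO libraries.

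The summed level of choroid plexus transcripts lay on the same side as the Hox counts. Ependymal and choroid plexus markers summed to 407 and 793 CPM in the controls and 26.4 and 23.1 CPM in Ezh2 cKO. Of 7 tested, 3 were higher and 4 lower, beside 34.7% higher and 33.6% lower over all genes tested. Ttr, the transthyretin gene of the choroid plexus, had 6326 and 11598 counts in the controls and 5 and 12 in Ezh2 cKO. Ttr alone was at 370 and 738 CPM in the controls, so the sum mostly follows this gene and not the list as a whole. The Hox sums were 6 and 5 against 1 and 3, and the part of tissue from outside the cortex in them was not tested.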

How the data were processed

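The authors deposited read counts per gene without normalization, and FPKM values, which are these counts scaled to gene length and library size. Per the labels' processing notes the tools were TopHat2 2.0.12, Bowtie2 2.2.3 and HTSeq 0.6.0 and the build mm9; strand and annotation are not given in the sources used here. The deposited fold changes and p-values of the authors' own comparison were not used. Genes were filtered with filterByExpr (edgeR 4.0.16 in R 4.3.3), scaled by the TMM method and fitted with the quasi-likelihood test on the group alone, with Benjamini-Hochberg adjustment over 16793 genes. DESeq2 1.42.0 and limma 3.58.1 on log2(FPKM + 1) and log2(FPKM + 0.1) were alternatives. The main edgeR fit, DESeq2 and limma on log2(FPKM + 1) were tested on simulated data, and the other steps were not. Of the Hox genes, those above 3 counts in a library would be named with every count; from each pathway list up to 6 called genes with the smallest p are named. Single genes of the lists that the text and plots leave out are not reported here, and the list counts and medians include them. Members and lists were chosen with earlier results of these data known. The flanking genes, promoter windows, exon overlap, the homeobox comparison and the alternatives for the lists were added after the data were seen.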

Additional observations from a re-analysis of the deposited data

How the results depend on the processing

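No Hox gene was called under any of the 11 alternatives, since 0 were tested except without a filter on low counts, where 10 were tested, and with limma on log2(FPKM + 0.1), where 1 was tested; a fold change for a member could not be given in the main test. Hox genes with a count numbered 10 in all, 7 in the controls and 4 in Ezh2 cKO, and all 3 numbers became 0 with a minimum of 4 or of 10 counts in a library. With each library left out they ranged from 7 to 9 in all, stood at 4 in Ezh2 f/f, and ranged from 1 to 3 in Ezh2 cKO. The ratio of summed Hox levels ranged from 0.169 to 0.516 with a library left out and from 0.337 to 0.373 under plain library totals, DESeq2 size factors and summed FPKM, below 1 throughout. The log2 fold change of Ezh2 ranged from -1.29 to -0.95 with a library left out, was -1.11 with a replicate block and -0.72 with limma on log2(FPKM + 1), and kept its call in each. The replicate numbers are not said to pair the libraries; the deviations of same-numbered libraries correlated with 0.130 over 16793 genes, and the replicate block gave 5795 genes higher and 5599 lower. With limma on log2(FPKM + 0.1), lower genes fell to 5 of the trithorax group, 6 of PRC2 and PRC1 and 5 of the upstream inputs, and higher upstream inputs were 3, as without Ezh2 cKO replicate 1. Meis1 ranged from -0.11 (cKO replicate 1 left out) to 0.15, with -0.08 when control replicate 2 was left out, and Mtx2 was at 0.033 with limma on log2(FPKM + 1) and 0.035 on log2(FPKM + 0.1), none of them called. The causes of these changes were not tested. Depth limits the statements on the Hox genes, since a count of 0 in a library allows up to 3 counts.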
